A study of Mus musculus with 12 samples.

Results

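Effector regulatory T cells (eTregs) that had lost CD25 were compared with eTregs that had kept it, across all genes measured. CD25, encoded by Il2ra, is the chain of the interleukin-2 receptor that gives it high affinity, and regulatory T cells (Tregs) are the Foxp3-expressing CD4 T cells that restrain immune responses. The members were chosen by sample title: 3 libraries titled KO_eTreg and 3 titled WT_eTreg, 6 of the 12 libraries of the series. The other 6 are the same genotypes in central Tregs (cTregs), and they are used here only for the spread between replicates and to test where the eTreg effect differed. All groups carried the alleles R26tomato+/+ and Foxp3eGFPERT2+/+, and tamoxifen was injected intraperitoneally into all mice at 2 mg/kg for 5 days. Per the design text, the knockout was restricted to Tregs and induced by the tamoxifen, and cells were taken 10 days later. Each library was a pool of spleen and lymph nodes from 2 to 3 mice, sorted as live CD4 cells by the GFP and tdTomato reporters, and eTregs were the cells low for CD62L. KO cells were also gated as low for CD25, a step not described for WT cells. The deletion and this gate therefore cannot be told apart for any gene below. The genotype field goes against the titles: it gives CD25FL/FL for libraries titled WT and CD25WT/WT for those titled KO. The groups used here are those of the titles, which the cell type field repeats. The labels used here give no strain, age or sex.

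Interleukin-2 binds a receptor of 3 chains. CD25 raises its affinity for the cytokine, while the beta chain (Il2rb) and the common gamma chain (Il2rg) carry the signal to the kinases JAK1 and JAK3. These phosphorylate STAT5, which enters the nucleus and turns on Foxp3, feedback inhibitors of the SOCS family and survival genes, and PI3 kinase with mTOR adds growth and biosynthesis. Tregs make almost no interleukin-2 of their own and take it from other T cells. Effector Tregs are antigen-experienced cells that have lost the homing receptors of resting T cells and gained inhibitory and tissue-homing receptors.

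Total counts ranged from 14567313 to 19121577 per library, and 12461 genes were tested. In the 6 eTreg libraries the leading principal component of log2 CPM (read counts scaled to a common library size with TMM) held 37.8% of the variance and parted the genotypes, and the second held 25.7% and parted the replicate numbers. The ribosomal RNA gene Rn45s took 4.11 to 4.34% of counts in WT and 3.19 to 3.32% in KO eTreg. The 8 effector gate markers summed to 1232 to 1414 CPM in WT and 1429 to 1734 in KO eTreg, against 238 to 869 in the cTreg libraries. The 7 central gate markers summed to 1177 to 1374 CPM in WT and 1262 to 1409 in KO eTreg, against 3570 to 4428 in cTreg, so the markers stood as the gate label says. Of other lineages, the 8 B cell markers summed to 15.3 to 15.8 CPM in WT and 9.56 to 11.5 in KO, of which 7.88 to 14.8 were Cd79b, and the 7 myeloid markers to at most 10.4. The 4 plasma cell markers summed to 58.7 to 67.2 CPM, of which 57.7 to 66.8 were Xbp1, a gene that many cell types express. The 5 erythroid markers summed to 14.96, 2.63 and 1.75 CPM in the WT replicates and to 10.2, 10.8 and 0.776 CPM in the KO replicates, the 2 CD8 markers to 5.48 to 6.96 CPM and the neutrophil markers to at most 0.111. The 5 NK cell markers summed to 16.4 CPM in KO eTreg replicate 2 and to 1.39 to 3.87 in the other 5 libraries, with Klrb1c at 11.4 CPM in that library and at most 0.831 elsewhere, while the NK receptor gene Klra8 was at 0 in all 6. The 5 dendritic cell markers summed to 4.43 to 5.77 CPM in WT and 5.88 to 6.87 in KO. Most of this was Zbtb46, at 2.03 to 3.09 CPM in WT and 3.47 to 5.48 in KO and called higher, and Xcr1. Xcr1 stood at 1.45 to 2.89 CPM in WT and 1.16 to 1.79 in KO and was not called. Flt3 and Siglech stood at most at 0.210 CPM. In bulk RNA, fewer cells of a type and less RNA per cell cannot be told apart.

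Il2ra, the targeted gene, stood at 464, 562 and 542 CPM in WT eTreg (replicates 1, 2 and 3, the order kept below) and at 125, 116 and 132 CPM in KO eTreg. The groups did not overlap, and each KO library kept a remainder of Il2ra reads. The log2 fold change, KO minus WT, was -2.07 ± 0.07 (SE, n = 3 per group), a 4.21-fold lower level (adjusted p = 3.20e-11 in the quasi-likelihood test of edgeR, with Benjamini-Hochberg adjustment over all genes tested). The KO gate selected on the same protein, so this level is not independent of the sort. Differences in all other genes also compare KO cells sorted by that gate with WT cells for which it is not described. Il2ra lies on chromosome 2 from 11642807 to 11693193 (mm10), and none of the 6 tested genes within 1 Mb of it was called in eTreg. Their log2 fold changes ran from -0.79 for a predicted gene of low level to 0.31 for Il15ra, the alpha chain of the interleukin-15 receptor. Il15ra was called (edgeR's adjusted p = 0.0311) when replicate number was added as a block to the 6 eTreg libraries.

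The other chains of the receptor were not called. Il2rb stood at 480.3, 494 and 511 CPM in WT and at 455, 452 and 449 CPM in KO eTreg. All KO values lay below the WT values, but the log2 fold change of -0.13 ± 0.05 did not pass the test (edgeR's adjusted p = 0.172). It passed in the paired fit, which took the 6 eTreg libraries alone with the replicate number as a block (edgeR's adjusted p = 0.0187). Il2rg, at 0.05 ± 0.05, and the STAT5 genes Stat5a (0.04 ± 0.06) and Stat5b (0.10 ± 0.05) did not pass either. Other members of the Janus kinase and STAT families rose by small amounts. Jak2, a kinase of cytokine receptors, went from 423, 424 and 414 CPM to 497, 548 and 521 CPM (0.31 ± 0.05). Stat3, which signals for IL-6 and IL-10, rose by 0.29 ± 0.06, and Stat4, which signals for interleukin-12, by 0.24 ± 0.05. Stat2 (0.23 ± 0.06), which carries interferon signals, also passed, but its call ended without any 1 eTreg library other than KO replicate 2 (edgeR's adjusted p up to 0.111) and scaled without Rn45s (0.0518). Of the 15 genes of receptor chains, Janus kinases and STAT factors, 5 rose and 1 fell, with a median log2 fold change of 0.10, against 0.01 over all 12461 genes. That is 40% called, against 6.65% of all genes. Without WT replicate 2 or KO replicate 1 or 3, 3 rose, and 2 fell in the paired fit.

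**Figure D1:**
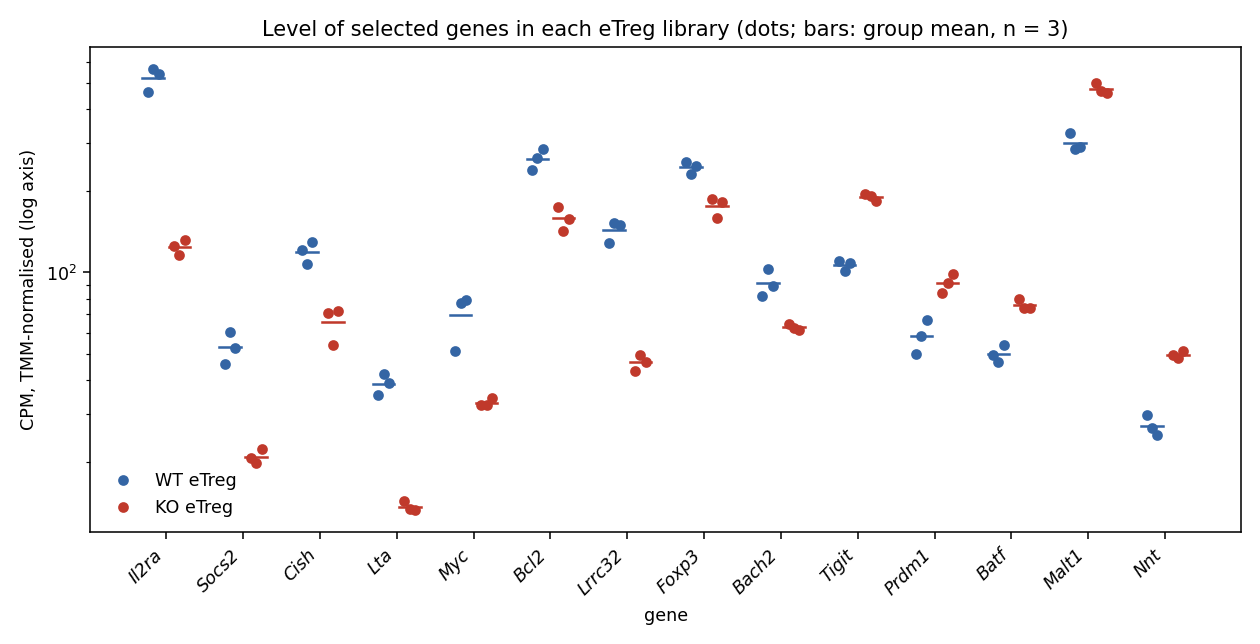
Level of 14 genes in each eTreg library, in TMM-normalised CPM on a log axis, with WT in blue, KO in red, and the bar at the mean of 3 libraries. In each gene shown the 3 KO libraries lie all above or all below the 3 WT libraries, with Il2ra between 116 and 132 CPM in KO and between 464 and 562 CPM in WT.

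Across the genome the change was broad in number and small in size. Of 12461 genes, 829 were called at an adjusted p under 0.05 (6.65%), 405 higher in KO (3.25%) and 424 lower (3.40%). Only 62 of the higher and 74 of the lower genes differed by more than 2-fold, 562 of the 829 differed by less than 1.5-fold, and the median absolute log2 fold change of the called genes was 0.38. In 823 of the 829 the KO and WT values did not overlap, which was so in 25.2% of all genes tested. At an unadjusted p under 0.05 in edgeR stood 2423 of the 12461 genes, and 6471 lay above 0 and 5984 below. List counts at that p or by side of 0 are to be read against these. Scaled by library size without Rn45s, which moves the median of all genes from 0.01 to -0.03, 301 genes were higher and 546 lower. The count depended on single libraries, with 455 genes called without WT replicate 2, 497 without WT replicate 3 and 462 without KO replicate 3. Within the eTreg libraries same-numbered samples deviated together, and the paired fit called 1712 of the 12208 genes it tested, 921 higher and 791 lower. These included 813 of the 829, while the same 6 libraries without the block gave 771. The paired-fit counts of the gene lists are thus to be read against 1712 of 12208 genes and not against 6.65%. The labels do not say whether pools of a genotype were independent in day or litter, so p-values measure the spread between these pools.

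**Figure D2:**
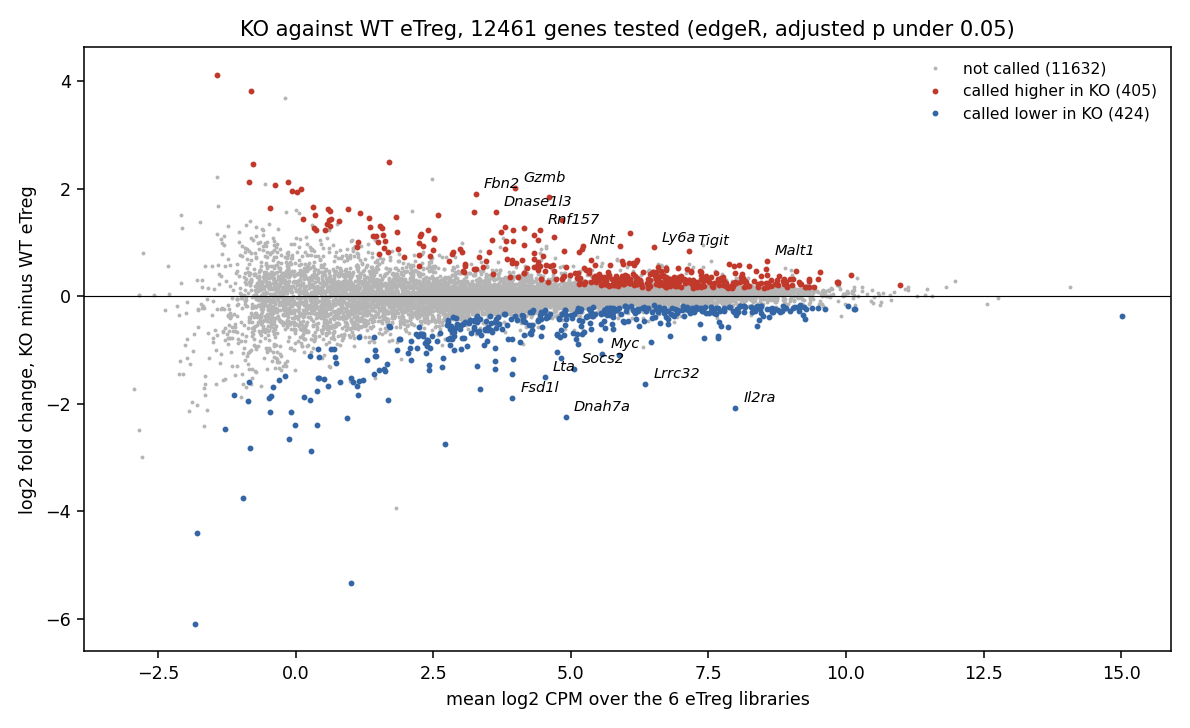
Log2 fold change of KO minus WT eTreg against mean log2 CPM of the 6 eTreg libraries for 12461 genes, with the 405 genes called higher in red and the 424 called lower in blue. Most called genes lie within 1 log2 unit of 0, and Il2ra (-2.07) stands apart among the genes of high level.

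Of 29 tested genes that interleukin-2 and STAT5 are known to induce, 11 fell and 4 rose, with a median log2 fold change of -0.14. In this list 51.7% were called, against 6.65% of all genes. Socs2, a feedback inhibitor of cytokine receptors, went from 46.1, 60.2 and 52.8 CPM to 20.7, 19.7 and 22.2 CPM (-1.35 ± 0.09). Cish, another inhibitor of the same family, went from 121, 107 and 129.5 CPM to 71.1, 54.0 and 72.3 CPM (-0.86 ± 0.11). In both genes every KO library lay below every WT library. Lta, the TNF-family cytokine lymphotoxin alpha, fell from 35.4, 42.2 and 39.0 CPM to 14.4, 13.4 and 13.2 CPM (-1.51 ± 0.09, edgeR's adjusted p = 4.81e-08). Myc, the transcription factor that drives ribosome and nucleotide synthesis, fell from 51.5, 77.5 and 79.1 CPM to 32.4, 32.3 and 34.5 CPM (-1.07 ± 0.15). Its WT libraries were spread more widely than its KO libraries and did not overlap with them. The survival gene Bcl2 (-0.73 ± 0.07) and the D-type cyclin gene Ccnd2 (-0.42 ± 0.05) fell too. The members that rose were Gzmb, the granule protease granzyme B, the factor genes Prdm1 (0.65 ± 0.11) and Nfil3 (0.46 ± 0.09), and the kinase gene Pim2, which went from 29.4, 27.8 and 32.1 CPM to 41.1, 41.4 and 38.7 CPM (0.44 ± 0.07). Gzmb, at 5.99, 11.2 and 7.47 CPM in WT and 18.1, 45.8 and 36.6 CPM in KO (2.01 ± 0.39), varied most and was not called without WT replicate 1 or 3 or KO replicate 3 (edgeR's adjusted p up to 0.0746), nor with the 6 eTreg libraries alone (0.0844).

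The promoters of Cish and Lta are printed because both genes fell and both hold the palindrome TTCNNNGAA that STAT factors recognise. The search took 250 bases before to 30 bases after the start of each gene in RefSeq (GRCm38.p6) and read both strands, which for this palindrome are the same. It found a match in 738 of the 9220 tested genes with a promoter in that table (8.0%), in 28 of 315 of the genes that fell (8.89%) and in 33 of 299 of those that rose (11%). Of the 29 listed genes, 25 had a promoter and 5 of these held a match, among them 2 of the 8 that fell. Cish lies on the plus strand at chr9:107296409-107296688 and has its matches at bases 1 and 12 of the transcript, and Lta on the minus strand at chr17:35205322-35205601 with matches starting at bases -152 and -16. Capitals mark the matches, each line is 5′ to 3′ on the strand of the gene, and a match describes the letters only.
Cish: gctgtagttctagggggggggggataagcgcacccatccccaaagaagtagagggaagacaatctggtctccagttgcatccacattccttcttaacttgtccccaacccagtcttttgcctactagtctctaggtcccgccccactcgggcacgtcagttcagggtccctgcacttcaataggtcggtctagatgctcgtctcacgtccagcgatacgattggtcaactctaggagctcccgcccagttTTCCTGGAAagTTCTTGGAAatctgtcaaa
Lta: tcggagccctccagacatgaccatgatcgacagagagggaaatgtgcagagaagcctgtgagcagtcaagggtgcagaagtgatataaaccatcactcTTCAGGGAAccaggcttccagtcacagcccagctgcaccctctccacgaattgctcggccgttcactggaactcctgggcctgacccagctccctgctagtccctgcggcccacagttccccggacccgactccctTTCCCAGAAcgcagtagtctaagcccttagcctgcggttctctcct

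Treg marker genes were called in 36% of cases and genes of TGF-beta in 32%, against 6.65% of all genes. Of the 25 tested genes that mark Tregs, 8 fell and 1 rose, with a median of -0.19. Without WT replicate 2 or 3, 5 fell, and in the paired fit 3 rose. Foxp3, the factor that defines the lineage, went from 256, 231 and 247 CPM to 187, 158 and 182 CPM (-0.48 ± 0.06, edgeR's adjusted p = 0.000205). The groups did not overlap, and the KO level was 1.39-fold lower. The falls in this list also included Il2ra and Socs2, the orphan receptor gene Gpr83 (-0.80 ± 0.15) and Lrrc32, which encodes GARP, the surface protein that holds latent TGF-beta. Lrrc32 went from 129, 153 and 150.0 CPM to 43.4, 49.6 and 46.8 CPM, a 3.09-fold lower level (-1.63 ± 0.11). Ikzf2, which encodes the Treg factor Helios, was the member that rose (0.22 ± 0.05), and its call ended without WT replicate 1 or 2 or KO replicate 3 (edgeR's adjusted p up to 0.0923). Ctla4, an inhibitory receptor central to suppression, stood at 279, 284 and 284 CPM in WT eTreg against 279.9, 287 and 315 CPM after deletion. The groups overlapped, and the change of 0.06 ± 0.08 did not pass. Of 25 genes that activate TGF-beta or carry its signal, 6 fell and 2 rose, with a median of -0.01, and 2 fell and 1 rose without WT replicate 2 or KO replicate 3, and 3 fell without KO replicate 1. Beside Lrrc32 the largest fall was in the type I receptor gene Tgfbr1, from 213, 260.0 and 197 CPM to 138, 131 and 122 CPM (-0.78 ± 0.10). The integrin gene Itgb8, whose product frees TGF-beta from GARP, rose from 80.7, 78.7 and 82.9 CPM to 108, 95.0 and 114 CPM (0.39 ± 0.07).

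Surface receptors moved in both directions. Inhibitory receptors were called in 16.7% of cases and costimulatory and activating receptors in 24.1%, against 6.65% of all genes. Of 24 inhibitory receptors 4 rose and 0 fell by edgeR, and their median was -0.04. At an unadjusted p under 0.05 (2423 of all 12461 genes), 6 were higher and 6 lower. Of this list 1 fell by DESeq2, without KO replicate 1, with the stricter filter, scaled without Rn45s and with the block over all 12 libraries, and 2 in the 6 eTreg libraries alone. Tigit, which competes for ligands on antigen-presenting cells, went from 110.5, 101 and 108 CPM to 195, 191 and 184 CPM (0.84 ± 0.05, edgeR's adjusted p = 3.05e-08). Lag3, a receptor for MHC class II, went from 42.7, 45.2 and 40.7 CPM to 76.3, 57.3 and 59.5 CPM (0.58 ± 0.12) and was not called without WT replicate 3 (edgeR's adjusted p = 0.0551). The groups of both genes stood apart, with KO replicate 1 highest. Pdcd1, which encodes PD-1, passed at 0.48 ± 0.12, but of the 6 libraries only WT replicate 1 could be left out with its call kept (edgeR's adjusted p up to 0.0996), and it was not called with no filter (0.0786). Without WT replicate 2 or any 1 KO replicate 2 inhibitory receptors rose, and the paired fit gave 6 rises and 6 falls. Of 29 costimulatory and activating receptors 5 rose and 2 fell, with a median of 0.07. The rises were 2 without WT replicate 2 or 3 or KO replicate 3, 3 without KO replicate 1 or 2, and 9 in the paired fit. Slamf6, a receptor of T to B cell contacts, rose by 0.39 ± 0.07 and the tetraspanin gene Cd53 by 0.29 ± 0.05. Cd86, a ligand of CTLA-4 and CD28, fell from 45.9, 44.5 and 52.8 CPM to 32.3, 23.6 and 34.0 CPM (-0.67 ± 0.13), and Cd226, the activating rival of TIGIT, from 151, 141 and 162 CPM to 109, 117 and 126 CPM (-0.36 ± 0.07). Tigit and Cd226, which share ligands, thus moved in opposite directions.

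Other cytokine receptors were called in 13.5% of cases, TNF receptors in 20% and TNF-family ligands in 38.5%, against 6.65% of all genes. Among 37 cytokine receptors other than those of interleukin-2, 2 rose and 3 fell, with a median of -0.01. In the paired fit, which called 921 of 12208 genes higher and 791 lower, 7 rose and 6 fell. With the block over all 12 libraries 4 rose and 5 fell, 4 rose by limma-voom, 5 fell when scaled without Rn45s, and 1 rose by DESeq2 and without WT replicate 1 or 2 or KO replicate 1. Il1r2, a decoy receptor of interleukin-1, rose from 45.7, 45.5 and 42.3 CPM to 99.9, 107 and 95.8 CPM (1.18 ± 0.14). The interleukin-4 receptor gene Il4ra had a log2 fold change of -0.38 ± 0.08 and was not called without WT replicate 3 or KO replicate 2 (edgeR's adjusted p up to 0.0620). Of 20 TNF receptors 3 rose and 1 fell, with a median of -0.16, and 2 fell by DESeq2, by limma-voom and without WT replicate 1 or 2, 3 in the 6 eTreg libraries alone and 4 in the paired fit. Tnfrsf14, the receptor HVEM, rose by 0.36 ± 0.06, the decoy-like receptor gene Tnfrsf26 by 0.38 ± 0.06 and the death receptor gene Fas by 0.36 ± 0.08, while Tnfrsf25, the death receptor DR3, fell by 0.39 ± 0.06 on the log2 scale. Of 13 TNF-family ligands 4 fell and 1 rose, with a median of -0.11. With the stricter filter, by DESeq2, with the block over all 12 libraries, in the 6 eTreg libraries alone and without KO replicate 2, 2 rose, and 3 rose by limma-voom and in the paired fit. Beside Lta, Tnf went from 41.7, 53.6 and 45.5 CPM to 24.8, 33.6 and 28.6 CPM (-0.70 ± 0.12). Tnfsf4, the OX40 ligand, rose 3.02-fold at a low level, from 0.787, 0.876 and 0.735 CPM to 2.25, 2.73 and 2.33 CPM.

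Chemoattractant receptors were called in 20.9% of cases and integrins and adhesion molecules in 22.5%, against 6.65% of all genes. Of 43 chemoattractant receptors 6 fell and 3 rose, with a median of -0.02, and 3 fell without WT replicate 2 or KO replicate 1 and 6 rose in the paired fit. Cxcr3, a receptor for interferon-induced chemokines, rose from 55.9, 49.9 and 70.3 CPM to 85.1, 93.1 and 101 CPM (0.67 ± 0.11). Ccr7, the lymph node homing receptor, fell from 73.0, 85.9 and 72.8 CPM to 60.2, 51.8 and 55.7 CPM (-0.47 ± 0.07). Ccr6, known from interleukin-17-type and mucosal T cells, fell from 65.6, 66.3 and 59.0 CPM to 44.6, 43.1 and 46.2 CPM (-0.51 ± 0.12). No group of these genes overlapped. The call of Ccr6 ended without WT replicate 1 or 2 and without each KO replicate (edgeR's adjusted p up to 0.0872). Of 40 integrins and adhesion molecules 5 rose and 4 fell, with a median of 0.03. The rises were 1 without KO replicate 3, 2 without WT replicate 1 or 2 and 3 without WT replicate 3 or KO replicate 2, and the falls 1 without WT replicate 2 or KO replicate 1 or 2 and 2 without WT replicate 3 or KO replicate 3.

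Suppressive mediators were called in 29.2% of cases and granzymes and granule proteins in 57.1%, against 6.65% of all genes. Of 24 suppressive mediators 4 rose and 3 fell, with a median of 0.29. The rises were 2 without WT replicate 1 or 3 or KO replicate 3 and in the 6 eTreg libraries alone, and 10 in the paired fit, and the falls were 1 without KO replicate 1 or 3 and in the 6 eTreg libraries alone. Tnfaip3, which encodes the NF-kB inhibitor A20, rose from 198, 179 and 201 CPM to 304, 246 and 322 CPM (0.59 ± 0.09). Areg, the repair growth factor amphiregulin, rose from 4.06, 3.97 and 4.30 CPM to 6.98, 7.46 and 7.81 CPM (0.85 ± 0.17). Penk, which encodes the precursor of enkephalin opioids, fell from 128, 120.2 and 143 CPM to 92.6, 91.3 and 90.9 CPM (-0.51 ± 0.08). Il10 stood at 9.75, 15.9 and 11.6 CPM in WT and 12.8, 19.96 and 15.3 CPM in KO, overlapping, and did not pass (0.36 ± 0.21) except in the paired fit (edgeR's adjusted p = 0.0169). Of 21 granzymes and granule proteins 9 rose and 3 fell, with a median of 0.26. Among those that rose were Rab27a (0.36 ± 0.05), a GTPase of granule docking, Stx11 (0.41 ± 0.09), a protein of granule fusion, and the serine protease inhibitors Serpinb6b (0.52 ± 0.10) and Serpinb9 (0.44 ± 0.09). Rab27a, Stx11 and Serpinb9 are named after their values were seen. Without single libraries 4 to 9 members of this list rose, with 4 without KO replicate 3 and 5 without WT replicate 1 or 3. None fell without WT replicate 3 or any 1 KO replicate by edgeR, and 1 fell without WT replicate 1 and with no filter, against 3 at an unadjusted p under 0.05 with all libraries and 2 by DESeq2 and 3 by limma-voom. The NK cell markers that were high in KO replicate 2 are given above, and their part in the granzyme values was not tested.

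Genes of follicular T cells, which help or restrain B cells in germinal centres, were mostly higher. Of 30 tested, 10 rose and 3 fell, 26 lay above 0 (6471 of 12461 over all genes), and the median was 0.39. That is 43.3% called, against 6.65% of all genes. Dnase1l3, a secreted nuclease, went from 9.93, 6.87 and 5.15 CPM to 19.9, 27.9 and 17.2 CPM (1.57 ± 0.20). Pou2af1, a coactivator of octamer factors known from B cells, went from 17.9, 15.8 and 10.8 CPM to 33.8, 33.0 and 25.0 CPM (1.05 ± 0.15). The groups stood apart in both genes, as the rule for the largest rises, by which both were named, required. The B cell marker Pax5 stood at 0 to 0.323 CPM in WT and 0.443 to 0.635 CPM in KO, while Cd79b stood at 14.4 to 14.8 and 7.88 to 10.4 CPM and the summed list was lower in KO, as given above. Both were named after their values were seen, and the part of B cell RNA in the value of Pou2af1 was not tested. Il21, the germinal centre cytokine, rose from 10.3, 11.1 and 5.83 CPM to 22.7, 27.6 and 16.2 CPM (1.29 ± 0.23) and was not called in the 6 eTreg libraries alone (edgeR's adjusted p = 0.0623). The lineage factor Bcl6 stood at 96.2, 78.1 and 63.2 CPM in WT and 131, 129 and 98.7 CPM in KO. Its groups did not overlap, and its change of 0.60 ± 0.16 missed the threshold (edgeR's adjusted p = 0.0655). In the paired fit Bcl6 passed (edgeR's adjusted p = 4.31e-06), and 18 genes of this list rose and 4 fell. Without WT replicate 2 or KO replicate 1 or 3, and in the 6 eTreg libraries alone, 1 fell.

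Of 55 effector and tissue Treg genes 16 rose and 2 fell, with a median of 0.28, and of 38 genes of resting and central T cells 15 fell and 1 rose, with a median of -0.17. The share called was 32.7% in the first list and 42.1% in the second, against 6.65% of all genes. In the paired fit 26 genes of the first list rose and 6 fell, and 1 fell without WT replicate 2 or any 1 KO replicate. In the second 7 fell without KO replicate 1 and 8 without WT replicate 2 or KO replicate 3, and 2 rose without WT replicate 1 or KO replicate 1, with the block over all 12 libraries and in the 6 eTreg libraries alone, 3 by limma-voom, 4 by DESeq2 and 6 in the paired fit. Several defining effector genes did not pass: Icos stood at 472, 487 and 412 CPM in WT and 518, 709 and 575 CPM in KO (0.39 ± 0.17), Klrg1 at 33.8, 46.8 and 47.0 CPM and 17.5, 36.1 and 28.5 CPM (-0.63 ± 0.26), and Cd44 had a log2 fold change of 0.10 ± 0.09. Icos did not overlap between groups, while Klrg1 and Cd44 did, and Klrg1 passed in the paired fit (edgeR's adjusted p = 0.00122). Treml2, a receptor of the TREM family, fell from 33.8, 51.8 and 41.5 CPM to 18.9, 18.7 and 19.7 CPM (-1.16 ± 0.15), and Ly6c1, a surface protein of resting T cells at low level here, from 1.63, 2.54 and 2.89 CPM to 0.346, 0.945 and 1.11 CPM (-1.55 ± 0.31).

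Among transcription factors of effector fates 14 of 54 rose and 6 fell, with a median of 0.12. In this list 37.0% were called, against 6.65% of all genes. Batf, an AP-1 partner of IRF4, went from 49.5, 46.6 and 54.0 CPM to 79.6, 73.7 and 74.1 CPM (0.60 ± 0.08), and Runx2 from 52.3, 52.9 and 55.7 CPM to 80.3, 84.2 and 83.8 CPM (0.63 ± 0.08). Prdm1, which encodes BLIMP-1, went from 50.1, 58.1 and 66.9 CPM to 84.2, 91.2 and 98.8 CPM (0.65 ± 0.11). In these genes every KO library lay above every WT library. Batf, Runx2, Hif1a and Bhlhe40 are named after their values were seen. The oxygen-sensing factors Epas1 (0.68 ± 0.11) and Hif1a (0.47 ± 0.06), and Bhlhe40 (0.54 ± 0.06), a repressor tied to the clock and to cytokine genes, rose too. Tbx21, which encodes T-bet, was higher by 0.67 ± 0.15 and was not called without WT replicate 1 or 2 (edgeR's adjusted p up to 0.0577). With WT replicate 2 or KO replicate 3 left out 3 fell, and the paired fit gave 22 rises and 6 falls.

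Falls in the same list included the related bZIP factors Hlf and Dbp and the nuclear receptor gene Nr1d1: Hlf went from 15.6, 15.4 and 12.4 CPM to 8.77, 7.46 and 7.04 CPM (-0.90 ± 0.18), Dbp from 15.1, 14.02 and 16.5 CPM to 9.81, 10.3 and 10.0 CPM (-0.60 ± 0.11), and Nr1d1 fell by 0.74 ± 0.19 on the log2 scale. Nr1d1 was not called without WT replicate 1 or 2 or KO replicate 2 or 3 (edgeR's adjusted p up to 0.105).

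Factors of resting T cells were called in 16.7% of cases and those of the antigen receptor, AP-1 and NF-kB in 10.5%. Interferon regulatory factors had 10% called and the MYC network 9.09%, against 6.65% of all genes. Of 48 factors of resting T cells 4 rose and 4 fell, with a median of -0.03 (10 and 8 in the paired fit). Without WT replicate 2 or 3, 2 rose, and without WT replicate 2 or KO replicate 1 or 3, 2 fell. Bach2, a repressor that holds T cells in a resting state, went from 81.7, 103 and 89.1 CPM to 64.3, 62.3 and 61.5 CPM (-0.54 ± 0.09). Nfia rose by 0.82 ± 0.15, and Tcf7, which encodes TCF-1, by 0.32 ± 0.07. The call of Tcf7, the 1 gene of the resting and central list that rose, ended without WT replicate 2 or 3 (edgeR's adjusted p up to 0.0719). Of 38 factors downstream of the antigen receptor, AP-1 and NF-kB, 4 rose and 0 fell, with a median of 0.04 (9 and 3 at an unadjusted p under 0.05, 10 and 4 in the paired fit), and 2 rose without WT replicate 2. Of 10 interferon regulatory factors 1, Irf2, rose (0.32 ± 0.05), while DESeq2 and the paired fit each called 3 and the 6 eTreg libraries alone 2. Myc was the 1 member of the 11-gene MYC network that was called, while the paired fit gave 1 rise and 2 falls and 1 member rose without KO replicate 2.

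Antigen receptor signalling had 17.6% of its genes called and regulators of MAP kinases and G proteins 16.2%. For PI3 kinase, AKT and mTOR it was 20%, against 6.65% of all genes. Of 51 genes of antigen receptor signalling 8 rose and 1 fell, with a median of 0.07. By DESeq2 and limma-voom, with no filter, scaled without Rn45s and without WT replicate 1 or KO replicate 3, 2 fell, and 4 in the paired fit. Malt1, the paracaspase that links the receptor to NF-kB, went from 328, 287 and 289.7 CPM to 499, 468 and 461 CPM (0.66 ± 0.06, edgeR's adjusted p = 2.93e-06). The adaptor Sla (0.37 ± 0.05) and the phosphatase Ptpn11 (0.35 ± 0.06) rose, and the adaptor Grap2 fell by 0.27 ± 0.05 on the log2 scale. Among 37 regulators of MAP kinases and G proteins 2 rose and 4 fell, with a median of 0.02, and 4 rose in the 6 eTreg libraries alone and 7 in the paired fit. Rasgrp1, the activator of RAS in T cells, went from 435, 465 and 435 CPM to 309.8, 365 and 341 CPM (-0.39 ± 0.07). The groups of Rasgrp1 did not overlap. Of 45 genes of PI3 kinase, AKT and mTOR 4 rose and 5 fell, with a median of 0.01, and 2 rose without WT replicate 2 or 3 or KO replicate 3. The falls were 1 without KO replicate 1, 2 without WT replicate 2 or 3 and 3 without KO replicate 2. Sesn1, a stress-induced brake on mTORC1, went from 78.5, 86.7 and 86.6 CPM to 62.3, 58.4 and 67.0 CPM (-0.42 ± 0.07), and the AKT phosphatase gene Phlpp1 rose by 0.32 ± 0.07. Rragd, a GTPase that recruits mTORC1 to lysosomes, fell from 38.3, 36.1 and 41.7 CPM to 22.3, 12.8 and 21.3 CPM (-1.04 ± 0.18).

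Apoptosis genes were called in 24.5% of cases, against 6.65% of all genes. Of 49 apoptosis genes 10 rose and 2 fell, with a median of 0.08, and 6 rose without WT replicate 1 or 2 or KO replicate 3. Scaled without Rn45s 4 fell, and 5 in the paired fit. The falls were the survival genes Bcl2, from 239.6, 264 and 285 CPM to 175, 142 and 158 CPM, and Bcl2l1, which encodes BCL-XL (-0.40 ± 0.09). Bcl2l1 was not called without WT replicate 2 or KO replicate 1 or 3 (edgeR's adjusted p up to 0.0925). Pmaip1, which encodes the pro-death protein NOXA, rose by 0.57 ± 0.12 and was not called without KO replicate 3 (edgeR's adjusted p = 0.0710).

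Ribosome biogenesis genes were lower, while few genes of energy metabolism were called. Of 56 genes of ribosome biogenesis 17 fell and 0 rose (30.4%, against 3.40% of all genes called lower), 55 lay below 0, and the median was -0.18. At an unadjusted p under 0.05 in edgeR 36 were lower and 0 higher, and DESeq2 and limma-voom each called 16 lower and 0 higher. Of all 12461 genes 2423 stood at that unadjusted p, in either direction, and 5984 lay below 0. Rrp12, which exports ribosomal subunits, went from 18.2, 21.3 and 21.1 CPM to 14.8, 14.2 and 16.2 CPM (-0.42 ± 0.09). Mybbp1a, a nucleolar regulator of ribosomal RNA synthesis, went from 119.9, 139 and 134 CPM to 100.4, 101 and 106 CPM (-0.36 ± 0.06). The groups of both genes stood apart, with WT replicate 1 the lowest of its group. Mybbp1a is named after its values were seen. Rn45s, the ribosomal RNA precursor left after depletion, stood at 38313, 37722 and 36303 CPM in WT and 29718, 28506 and 28938 CPM in KO eTreg (-0.37 ± 0.06). The number of ribosome biogenesis genes that fell ran from 3 to 17 when 1 library was left out, with 3 without WT replicate 2, 6 without WT replicate 3 or KO replicate 3 and 9 without KO replicate 1, while the median stayed between -0.22 and -0.14. It was 26 in the paired fit.

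Pentose phosphate and nucleotide synthesis genes were called in 20.5% of cases and amino acid supply genes in 5.77%, against 6.65% of all genes. Of 39 genes of the pentose phosphate pathway and nucleotide synthesis 7 fell and 1 rose, with a median of -0.09, and 4 fell without WT replicate 2 and 3 without KO replicate 3. The falls included enzymes of purine synthesis, Gart (60.5, 62.9 and 58.5 CPM to 46.0, 48.7 and 47.9 CPM, -0.35 ± 0.05) and Impdh2 (-0.33 ± 0.07), and Cad, which starts pyrimidine synthesis (-0.35 ± 0.07). Dck, the kinase that salvages deoxynucleosides, was the member that rose (0.45 ± 0.08). Of 52 genes of amino acid supply 3 fell, Shmt2, the mitochondrial serine hydroxymethyltransferase (-0.35 ± 0.07), the leucine transporter gene Slc7a5 (-0.48 ± 0.11) and the taurine transporter gene Slc6a6 (-0.25 ± 0.06). The calls of Slc7a5 and Slc6a6 ended without WT replicate 2 or KO replicate 3 (edgeR's adjusted p up to 0.0883), that of Slc7a5 also without WT replicate 3 and that of Slc6a6 without KO replicate 1. In that list 10 fell when scaled without Rn45s, 7 by DESeq2, 5 with no filter, and 11 in the paired fit, where 1 rose. Without WT replicate 1 it was 8, without KO replicate 2 it was 5, and without WT replicate 2 (where 2 rose) or KO replicate 3 it was 1.

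Called genes were few in the other metabolic lists. In glycolysis 1 of 36 rose and 2 fell (median 0.03; 5 and 6 in the paired fit), in the citric acid cycle 0 of 29 were called (median -0.03), and in fatty acid oxidation 0 of 36 (median -0.0025). In glycolysis 2 rose without WT replicate 1 and 0 without WT replicate 3 or KO replicate 2, and 1 fell without WT replicate 2 or 3 or KO replicate 2 and 0 without KO replicate 1. In the last 2 lists DESeq2 and limma-voom also called 0, while edgeR called 2 citric acid cycle genes lower in the paired fit and 1 scaled without Rn45s, and 1 fatty acid oxidation gene higher with no filter. At an unadjusted p under 0.05 in edgeR 5 genes of the citric acid cycle were lower and 0 higher, and 3 of fatty acid oxidation were lower and 2 higher. Over all genes 2423 of 12461 stood at that level, and the shares of both lists lie below it. In the nuclear-encoded respiratory chain 1 of 76 fell (median -0.06), and in fatty acid and cholesterol synthesis 1 of 51 (median -0.08; 6 in the paired fit). The respiratory chain call ended by DESeq2, with the block over all 12 libraries and without any 1 library, and 2 fell in the paired fit and scaled without Rn45s. In lipid synthesis 3 fell without WT replicate 1 and 0 without WT replicate 2 or 3 or KO replicate 1 or 3, and 1 rose without WT replicate 1 or KO replicate 1 and with the block over all 12 libraries. With all libraries the shares called lie below the 6.65% of all genes called, except for glycolysis at 8.33%. Genes of the mitochondrial genome were not analysed here. Single metabolic genes moved more: Nnt, the mitochondrial transhydrogenase that makes NADPH, went from 29.9, 26.6 and 25.1 CPM to 49.6, 48.3 and 51.3 CPM (0.87 ± 0.07, edgeR's adjusted p = 1.02e-06). Gsto1, a glutathione transferase, fell from 7.99, 10.9 and 9.22 CPM to 3.81, 4.20 and 4.65 CPM (-1.15 ± 0.15). Of 62 cell cycle genes 1 rose and 1, Ccnd2, fell, and 3 rose with the block over all 12 libraries. In the paired fit, which called 921 of 12208 genes higher, 8 of them rose. With all libraries and no block the share called, 3.23%, lay below the 6.65% of all genes.

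**Figure D3:**
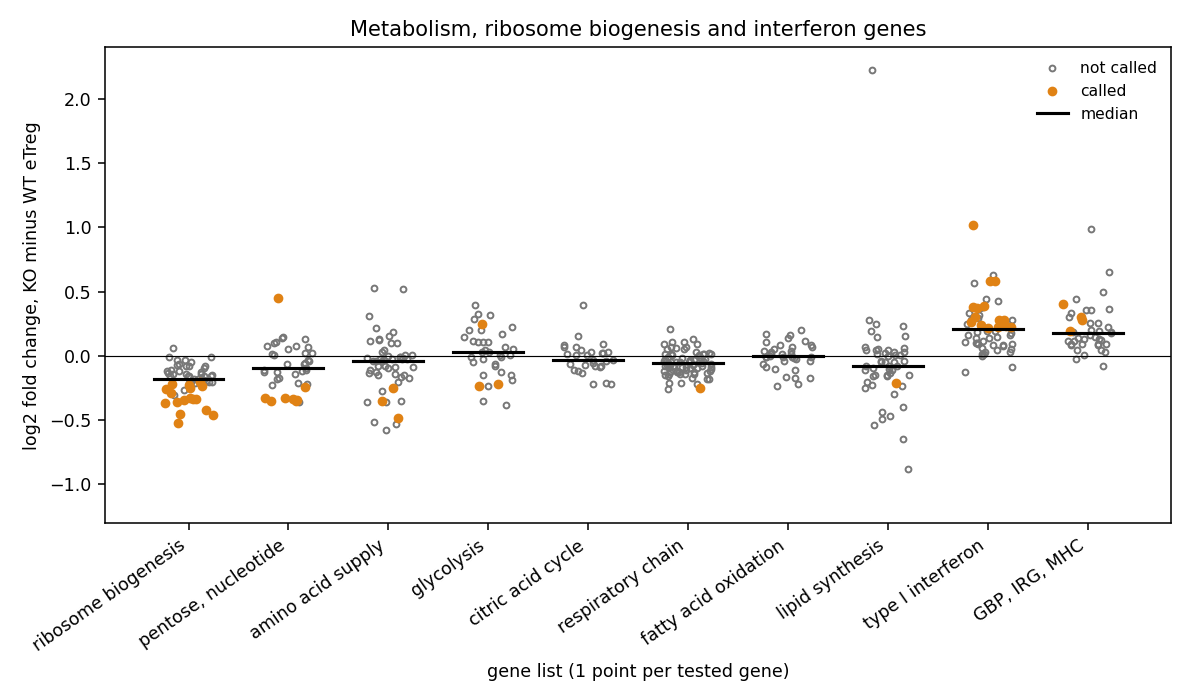
Log2 fold change of KO minus WT eTreg for every tested member of 10 gene lists, with called genes filled in orange, others open, and a bar at the list's median. Ribosome biogenesis genes lie below 0 in 55 of 56 cases (median -0.18) and type I interferon genes above 0 in 54 of 56 (median 0.21), while the citric acid cycle and fatty acid oxidation hold no gene called by edgeR with all 12 libraries and no block. Of all 12461 genes 5984 lie below 0 and 6471 above.

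Genes of the type I interferon response were higher by small amounts. Of 56 tested, 15 rose and 0 fell (26.8%, against 3.25% of all genes called higher), 54 lay above 0, and the median was 0.21. At an unadjusted p under 0.05 in edgeR 25 were higher and 0 lower, and DESeq2 called 18 and limma-voom 15 higher and 0 lower. Of all 12461 genes 2423 stood at that unadjusted p, in either direction, and 6471 lay above 0. Zbp1, a sensor of nucleic acids, went from 106, 119 and 113 CPM to 145, 135 and 158 CPM (0.37 ± 0.07), and Dtx3l, a ubiquitin ligase, rose by 0.28 ± 0.05, both named after their values were seen. Oas3, which senses double-stranded RNA, went from 35.8, 40.4 and 30.8 CPM to 46.0, 54.7 and 59.5 CPM (0.58 ± 0.14), and its call ended without WT replicate 1 or 3 or KO replicate 2 or 3 (edgeR's adjusted p up to 0.125) or with no filter (0.0858). Among 41 guanylate-binding GTPases, MHC and immunoproteasome genes 4 rose and 0 fell, 39 lay above 0, and the median was 0.18 (18 higher and 0 lower at an unadjusted p under 0.05, and 0 lower by DESeq2 or limma-voom). In this list 9.76% were called, against 6.65% of all genes. Irgm1, an interferon-induced GTPase, went from 137, 145 and 147 CPM to 193, 177 and 197 CPM (0.40 ± 0.08). Without single libraries 4 to 13 interferon genes rose, with 4 without KO replicate 3, 7 without WT replicate 1 or 2 and 9 without KO replicate 1. In the GTPase and MHC list 1 rose without WT replicate 1 or 2 or KO replicate 1 or 3, and 10 without KO replicate 2, while 2 rose scaled without Rn45s, 7 with the block over all 12 libraries and 11 by DESeq2. In the paired fit 26 and 12 rose.

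The promoters of Oas3 and Irgm1 are shown as examples of the interferon-stimulated response element, searched as TTTCNNTTTC or its reverse complement GAAANNGAAA in the same windows, with overlapping matches counted. It was found in 328 of the 9220 tested genes with a promoter (3.56%), in 23 of 299 that rose (7.69%) and in 17 of 315 that fell (5.40%). Of the interferon list it was found in 20 of 42 tested genes with a promoter, and in 4 of the 8 of these that rose. Oas3 lies on the minus strand at chr5:120777630-120777909 with 1 match from base -75, and Irgm1 on the minus strand at chr11:48871391-48871670 with 2 overlapping matches from bases -30 and -24 (GRCm38.p6). Capitals mark the matches, and each line is 5′ to 3′ on the strand of the gene.
Oas3: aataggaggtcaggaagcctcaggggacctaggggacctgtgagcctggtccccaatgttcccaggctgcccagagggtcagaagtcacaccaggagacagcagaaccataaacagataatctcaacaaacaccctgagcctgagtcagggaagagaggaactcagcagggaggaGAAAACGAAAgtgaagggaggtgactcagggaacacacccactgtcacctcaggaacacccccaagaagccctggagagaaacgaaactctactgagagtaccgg
Irgm1: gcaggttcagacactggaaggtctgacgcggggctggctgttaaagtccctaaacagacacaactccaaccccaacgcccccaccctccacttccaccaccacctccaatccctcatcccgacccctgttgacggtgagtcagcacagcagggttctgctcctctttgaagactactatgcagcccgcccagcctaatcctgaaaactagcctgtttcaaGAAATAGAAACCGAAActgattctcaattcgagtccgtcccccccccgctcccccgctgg

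Against 6.65% of all genes, the share called in the remaining lists was 25% for GIMAP genes and 16.7% for ATP and adenosine. For chemokine ligands it was 37.5% (2 of 8 rose and 1 fell, median 0.345), with 2 of the 8 at a mean log2 CPM of at least 3. Without single libraries 1 to 4 chemokine ligands rose and 0 to 2 fell. For cytokines of helper T cells it was 20% (1 of 15 rose and 2 fell, median 0.05), and 3 rose and 5 fell in the paired fit. It was 7.94% for histone and DNA modifying enzymes and 7.27% for actin, myosin, annexins and galectins. For glutathione, thioredoxin, iron and heme it was 4.17%, and for chaperones and the unfolded protein response 4.44%. Of 18 genes of extracellular ATP and adenosine 3 rose and 0 fell by edgeR (median 0.02; 5 and 4 at an unadjusted p under 0.05, and 1 lower by DESeq2), among them Pde4d, a phosphodiesterase that breaks down cyclic AMP (0.52 ± 0.08). In that list edgeR called 1 lower with DESeq2 size factors, scaled without Rn45s, with no filter, with the block over all 12 libraries, in the 6 eTreg libraries alone and without KO replicate 2, and 4 in the paired fit. Of 8 GIMAP genes, GTPases of lymphocyte survival, 2 rose and 0 fell by edgeR (median 0.11). All 8 lay above 0 (6471 of 12461 over all genes), with 3 higher and 0 lower at an unadjusted p under 0.05 (2423 of 12461). Without WT replicate 1 or 2 or KO replicate 3 edgeR called 0 of them, and without WT replicate 3 or KO replicate 1, with no filter, scaled without Rn45s and with the block over all 12 libraries 1, while DESeq2 and limma-voom called 2. Of 63 histone and DNA modifying enzymes 4 rose and 1 fell (median 0.03), among them the deacetylase gene Hdac5 (0.32 ± 0.07) and the demethylase gene Kdm2b (0.30 ± 0.05). Without WT replicate 2 or 3 or KO replicate 1 or 3, 2 rose, and in the paired fit 9 rose and 3 fell (921 and 791 of 12208 over all genes). The 1 fall ended without WT replicate 1 or 3 or KO replicate 2 or 3 and in the 6 eTreg libraries alone. Of 55 genes of actin, myosin, annexins and galectins 1 rose and 3 fell (median 0.02). There 2 rose by DESeq2, limma-voom, in the 6 eTreg libraries alone and without WT replicate 1 or KO replicate 1, 5 with the block over all 12 libraries and 0 without WT replicate 3 or KO replicate 2, where 5 fell, and the paired fit gave 6 rises and 8 falls. Of 48 genes of glutathione, thioredoxin, iron and heme 2, Gsto1 and the oxidase subunit gene Ncf1 (-0.69 ± 0.14), fell (median -0.03), and 1 rose without KO replicate 2 and 2 in the paired fit. Of 45 chaperone and unfolded protein response genes 1 rose and 1 fell (median 0.0045). Neither was called in the 6 eTreg libraries alone or without WT replicate 1 or 2 or KO replicate 2 or 3. The fall also ended without WT replicate 3, and the rise by limma-voom and scaled without Rn45s, while 2 rose with the block over all 12 libraries and the paired fit gave 2 rises and 2 falls.

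**Figure D4:**
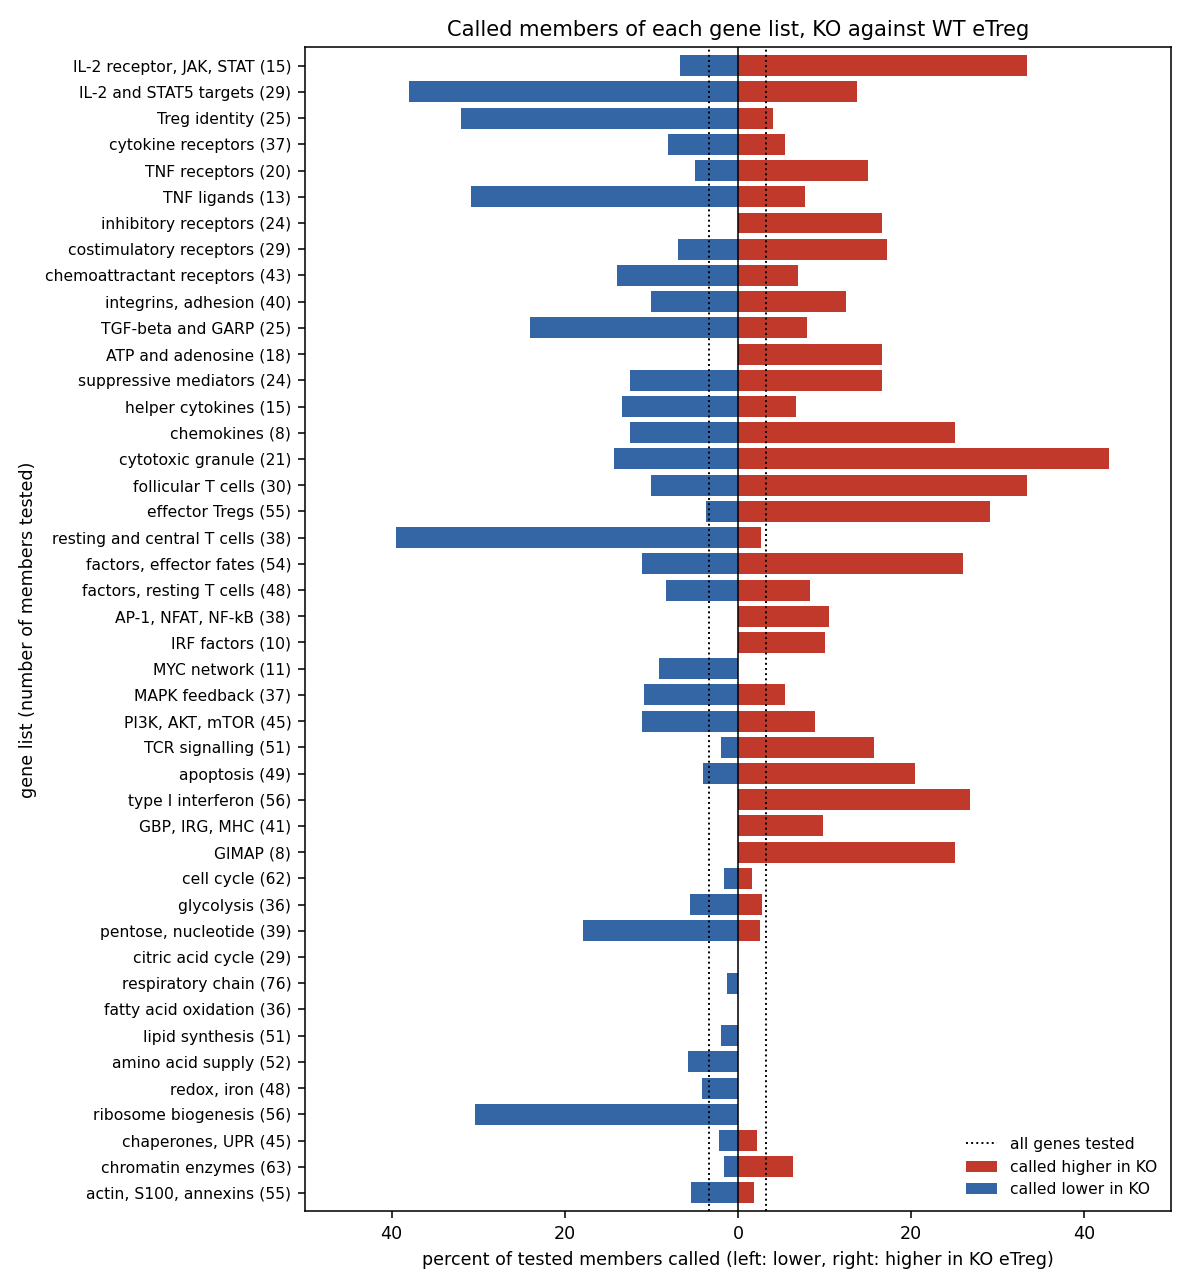
Percent of the tested members of each of 44 gene lists that were called lower (blue, left) or higher (red, right) in KO eTreg, with the share over all genes tested as dotted lines at 3.40% and 3.25%. To the left extend the resting list (15 of 38), STAT5 targets (11 of 29), Treg identity (8 of 25), TNF ligands (4 of 13) and ribosome biogenesis (17 of 56). To the right extend the granule (9 of 21), follicular (10 of 30), receptor, JAK and STAT (5 of 15), effector Treg (16 of 55) and type I interferon (15 of 56) lists. The metabolic lists other than nucleotide synthesis stay near the dotted lines.

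Of the 829 called genes 606 stood in none of the lists (73.1%), against 88.7% of all genes tested, and several of the largest changes were among them. Fbn2, the matrix protein fibrillin-2, went from 4.97, 4.84 and 5.15 CPM to 22.9, 18.6 and 14.3 CPM, a 3.73-fold higher level (1.90 ± 0.18). Slc24a3, a sodium, potassium and calcium exchanger, went from 6.78, 3.97 and 5.88 CPM to 18.8, 12.7 and 17.5 CPM (1.57 ± 0.23), and Rnf157, a ubiquitin ligase, from 12.5, 13.1 and 16.9 CPM to 36.3, 34.2 and 29.1 CPM (1.23 ± 0.15). The naming rule for the largest changes took only called genes whose groups did not overlap. Further rises were Cdk5r1, the activator of the kinase CDK5 (1.23 ± 0.16), the sugar phosphate transporter gene Slc37a2 (1.05 ± 0.12), the factor gene Tshz2 (1.02 ± 0.14), the cytoskeletal protein gene Plek (0.96 ± 0.14), the sorting nexin gene Snx9 (0.88 ± 0.12) and the zinc finger factor gene Casz1 (0.82 ± 0.15). The largest fall by the naming rule was Dnah7a, an axonemal dynein heavy chain, from 60.2, 70.2 and 66.6 CPM to 17.7, 11.7 and 12.5 CPM, a 4.73-fold lower level (-2.24 ± 0.18). Rell1, a relative of the TNF receptor RELT, fell by 1.73 ± 0.14 on the log2 scale, the scaffold gene Cnksr3 by 1.20 ± 0.10, the adaptor-like gene Sh3bgrl2 by 1.17 ± 0.13 and the GTPase-activating protein gene Arhgap20 by 1.34 ± 0.16. Ryr2, a calcium release channel of the endoplasmic reticulum, went from 77.9, 92.5 and 86.9 CPM to 36.5, 44.0 and 40.6 CPM (-1.09 ± 0.19). That no WT and KO value of these genes overlapped was thus a condition of naming them.

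The same deletion was compared in cTregs, which share no library with the eTreg comparison, to find where the eTreg effect differed. The labels do not say whether pools of the 2 gates shared mice, day or litter, and both comparisons came from 1 fit. The overlap of calls below is thus not between animals known to be independent. In cTreg 3421 genes were called (27.5%). Of the 405 genes that rose in eTreg 321 also rose in cTreg (79.3% of the eTreg list and 17.4% of the 1847 that rose in cTreg), and of the 424 that fell 338 also fell (79.7%, and 21.5% of 1574). The test of the difference between the effects called 474 genes (3.80%), 120 of them among the 829, and 314 without KO cTreg replicate 2. Tigit, up by 0.84 ± 0.05 in eTreg, was up by 3.56 ± 0.07 in cTreg (difference -2.73, edgeR's adjusted p = 1.05e-11), and Cxcr3 by 0.67 ± 0.11 and 3.19 ± 0.13 (difference -2.52, 6.28e-06). Batf (0.60 against 1.23, difference -0.63) and Prdm1 (0.65 against 1.85, difference -1.20) also rose less in eTreg by this test, with edgeR's adjusted p of 0.00324 and 0.00153. Bcl2 fell less in eTreg (-0.73 against -1.25, edgeR's adjusted p of the difference = 0.00669), as did Ccnd2 (-0.42 against -0.75, 0.0116). For Lta (-1.51 against -1.42, edgeR's adjusted p = 0.782) and Foxp3 (-0.48 against -0.79, 0.0519) the difference did not pass, though for Foxp3 it did with the replicate number as a block over all 12 libraries (0.0180), with no filter (0.0365), by DESeq2 (0.0259) and without KO eTreg replicate 2 (0.00631).

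Of the 161 genes called in eTreg and not in cTreg the difference was called in 11, so for the other 150 a difference between the gates was not shown. Of the 829, 9 were called in opposite directions in the gates, 2 that rose and 7 that fell in eTreg. Penk was -0.51 ± 0.08 in eTreg and 0.56 ± 0.13 in cTreg (edgeR's adjusted p of the difference = 0.000476), and Cd226 was -0.36 ± 0.07 and 0.36 ± 0.08 (0.000573). Ribosome biogenesis fell in 40 of its 56 genes in cTreg, with a median of -0.33 against -0.18 in eTreg, and the difference was called in none of them.

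**Figure D5:**
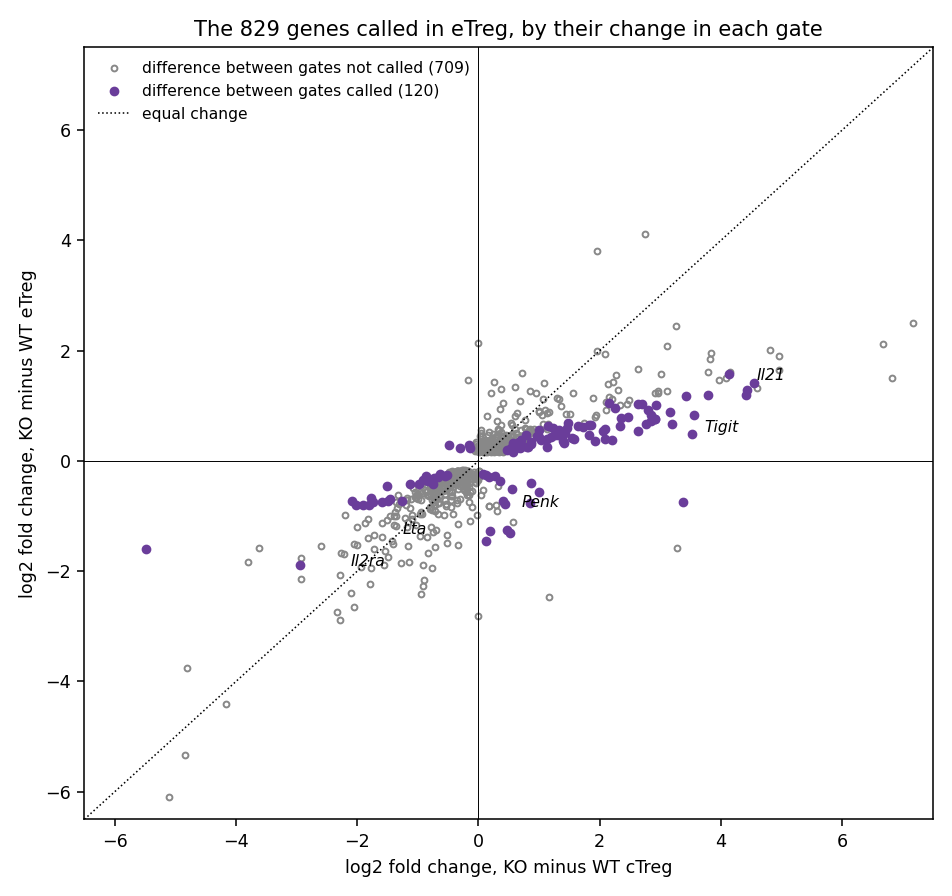
Log2 fold change of KO minus WT in eTreg (vertical) against cTreg (horizontal) for the 829 genes called in eTreg, with the 120 whose effect differed between the gates in purple. The 2 axes share no library but come from 1 fit. Tigit lies far to the right of its eTreg value (3.56 against 0.84) while Penk is below 0 on the eTreg axis and above 0 on the cTreg axis (-0.51 against 0.56).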

How the data were processed

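RNA was extracted with RNeasy columns and ribosomal RNA was depleted during library preparation, per the labels' protocols. The submitters' processing notes name HISAT2 2.2.1, Cell Ranger and the mouse build mm10. The authors deposited raw gene counts per symbol for all 12 libraries; how reads were assigned to genes, and whether by strand, is not given in the sources used here, which leaves reads of overlapping, antisense or near-identical genes hard to separate. The 27 lines whose symbols had turned into dates, which held at most 0.247% of a library's counts, were left out, and 2 symbols stood on more than 1 line.

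The counts were tested with edgeR 4.0.16 (R 4.3.3) in 1 quasi-likelihood fit over all 12 libraries, with TMM scaling, filterByExpr, robust dispersion and 1 term per group, and p-values were adjusted over 12461 genes with a threshold of 0.05. CPM were scaled by TMM. With 3 libraries a group the common biological coefficient of variation was 0.0768, and chi-square over degrees of freedom between replicates (4.88 to 10.5) showed no library deposited again. Same-numbered eTreg samples deviated together (correlations 0.257, 0.341 and 0.166), so an alternative fit took the replicate number to pair them. This pairing was read from the data, and the labels do not state it. The main fit, with its 829 calls, held no replicate block. Alternatives were DESeq2 size factors, scaling without Rn45s, no or a stricter filter (1 CPM in 3 libraries), DESeq2 1.42.0, limma-voom 3.58.1, the replicate block, the 6 eTreg libraries alone, a log2 fold change of at least 1, and each library left out. The procedure was tested on simulated data with 200 changed genes. It recovered 63 of 100 changes of 1.5-fold and 90 of 100 of 2-fold, and 6.71% of its 164 calls were false. The simulated counts had no shared replicate effect, no change in cTreg and no change under 1.5-fold. These rates thus do not cover the 562 of the 829 called genes that differed by less than 1.5-fold.

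Groups follow the titles. Genes named were the 30 largest rises and falls that were called, did not overlap and had a mean log2 CPM of at least 3, at most 4 called genes per list and direction, all members of the receptor, Treg and general panels, and the 8 largest differences between gates each way, with some left out for length and some not reported here. Predicted genes and antigen receptor segments were not named. Rn45s, Klrb1c and Xcr1 were named after their values were seen. The members and the gene lists were chosen with earlier results of these data known.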

Additional observations from a re-analysis of the deposited data

Results flagged for a closer look

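The effect of the deletion differed between eTreg and cTreg, by the test of the difference itself (edgeR, adjusted over all genes), in the genes named for the most positive (8 genes) and the most negative (7 genes) difference in log2 fold change, eTreg minus cTreg. Of the first 8, all fell in cTreg, and the 6 not marked as not called below also fell in eTreg, by less. The differences were 1.36 for Ctsw, a lymphocyte cathepsin (-0.72 in eTreg and -2.08 in cTreg), and 1.21 for Gpr34, a lysophospholipid receptor (-0.80 and -2.01). They were 1.20 for Osgin1, an oxidative stress gene (-0.45, not called, and -1.65), and 1.11 for both Apol9b (-0.67 and -1.78) and Nol4l (-0.80 and -1.91). Rcn1, a calcium-binding protein of the secretory pathway, had 1.07 (-0.45 and -1.51), Fsd1l 1.05 (-1.89 and -2.94), and the zinc finger factor gene Cxxc5 1.03 (0.29, not called, and -0.74).

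The genes with negative differences all rose in cTreg, and those not marked as not called below also rose in eTreg, by less. They were -4.02 for Il10, a suppressive cytokine (0.36, not called, in eTreg and 4.38 in cTreg), -3.15 for Il21, a germinal centre cytokine (1.29 and 4.43), and -3.13 for Cd22, an inhibitory lectin receptor (1.42 and 4.55). The chemokine receptor gene Cxcr6 (0.23, not called, and 3.17) had -2.94. Asb2, a ubiquitin ligase subunit (-0.14, not called, and 2.72), had -2.86, Klrg1, an inhibitory lectin receptor of effector cells (-0.63, not called, and 2.201), had -2.83, and Tigit (0.84 and 3.56) had -2.73. Of these 15 genes, 9 kept the call of the difference under every alternative. The other 6 lost it under some, with edgeR's adjusted p up to 0.118 for Cd22, 0.106 for Klrg1, 0.1003 for Cxxc5, 0.0722 for Fsd1l and 0.0678 for Gpr34. Il21 lost it without any 1 WT cTreg replicate or without KO cTreg replicate 2 (edgeR's adjusted p up to 0.0849), and with limma-voom (adjusted p = 0.157).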

How the results depend on the processing

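The count of 829 genes stayed within 1.5 times under DESeq2 size factors (826), scaling without Rn45s (847, with 301 higher and 546 lower), no filter (826), the stricter filter (831), DESeq2 (901), limma-voom (915), the replicate block over all 12 libraries (857) and the 6 eTreg libraries alone (771). It was 1712 with the replicate block in the 6 eTreg libraries, 921 higher and 791 lower, and 136 with a log2 fold change of at least 1, 62 higher and 74 lower. Leaving out 1 library gave 455 to 701 genes, 213 to 361 higher and 225 to 340 lower. The difference between gates gave 314 to 570 genes without 1 library, 384 by limma-voom, 558 with the replicate block and 624 by DESeq2, and the cTreg count 2534 to 3303 without 1 library. Of 110 called genes named in the report and followed through the alternatives, 94 kept their call under every alternative in which they were tested. The log2 fold change of at least 1 is not among these, as it was applied to counts alone. None of the genes so followed changed sign. The causes were not tested. With 3 pools a group, small changes and genes of few counts are the least certain.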
